A study of Mus musculus with 4 samples.

Results

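The 8 genes described here control cholesterol in the cell: Srebf1 and Srebf2, which encode the SREBP transcription factors, Scap, Insig1 and Insig2, which hold or release them, and Stard4, Npc1 and Abca1, which move cholesterol within the cell and out of it. They were listed by name with earlier results of these data known, so the shares given below for them and for the gene lists are descriptions, not tests. All 8 were measured, out of 19938 named genes, those with a feature that carried 1 symbol alone. Each of the 8 had 1 such array feature, and that feature was used. Expression was measured on 4 Affymetrix arrays in MC3T3-E1, an established line of C57BL/6-derived mouse pre-osteoblasts from the calvaria. The groups were citalopram at day 7, control at day 7, citalopram at day 3 and control at day 3, with 1 array per group, and the series set citalopram against control. Citalopram, a selective serotonin reuptake inhibitor (SSRI), was given at 0.0001 mol per litre (100 µM) in proliferation medium; control cells were untreated, and cells of every group were cultured with 1% fetal bovine serum. The line stands in for bone-forming cells in culture, and the labels leave unsaid whether RNA from the 3 wells of a treatment was combined.

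SREBPs are made as inactive precursors in the membrane of the endoplasmic reticulum, bound to SCAP. When the membrane is low in sterol, SCAP carries them to the Golgi, where proteases free a fragment that enters the nucleus and switches on genes of sterol and fatty acid synthesis. When sterol is plentiful, INSIG proteins keep SCAP in place. Srebf2 and Insig1 are themselves SREBP targets, so their transcripts are commonly read as indicators of the pathway. Abca1 is governed by the oxysterol-sensing LXR receptors and is known to answer sterol excess.

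Values are on the authors' log2 scale, on which a difference of 1.00 is a doubling, and a level is never compared between genes. A gene was taken as above the floor where it reached the 40th percentile of named genes on an array, between 5.95 and 6.01. Array medians over all features lay between 6.50 and 6.66, and any 2 arrays had a Pearson's r between 0.986 and 0.995 across features. Of 9 osteoblast markers listed, 6 were measured, and 5 of these 6 reached the floor on at least 1 array. Alpl lay close to the floor and reached it on 2 arrays, and Ibsp, a late matrix gene, stayed below it. The 4 hepatocyte markers were below the floor throughout, as were 4 of 6 macrophage and 4 of 6 adipocyte markers. With 1 array per group there is no spread between replicates, so no single difference below can be set against replicate error, and the number of arrays limits every value.

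Srebf2 encodes SREBP-2, the main activator of cholesterol synthesis genes. Its level was 10.10 with citalopram and 10.18 in control at day 7, and 10.32 with citalopram and 9.85 in control at day 3. The control array of day 3 was the lowest of the 4 and the citalopram array of the same day the highest. The citalopram difference was therefore 0.47 at day 3 (1.39-fold higher), a size reached by 1.38% of the genes above the floor, and -0.08 at day 7. In these bulk samples, fewer cells of a type and less RNA per cell cannot be told apart.

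A second feature also listed Srebf2, among 4 symbols, and was marginally brighter, at a mean of 10.12 against 10.11. None of its RefSeq accessions matched Srebf2, and 2 matched Ube3a, so it was not used for the gene. That feature read 10.22 with citalopram and 10.02 in control at day 7, and 10.14 with citalopram and 10.08 in control at day 3. Taken as Srebf2, it would give citalopram differences of 0.19 at day 7 and 0.06 at day 3, so every statement on Srebf2 rests on the feature that carries its symbol alone.

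Srebf1 encodes SREBP-1, whose isoforms govern fatty acid synthesis most strongly, and the feature does not separate the isoforms. The gene lies on chromosome 11, 60199084 to 60224186. It measured 8.45 with citalopram and 8.54 in control at day 7, and 8.26 with citalopram and 8.21 in control at day 3. Both arrays of day 7 were above both of day 3. The citalopram difference was -0.09 at day 7, where 29.9% of genes were as low, and 0.04 at day 3, where 46.3% were as high.

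The Srebf2 gene (GRCm38.p6, chromosome 15, 82147269 to 82205379) also holds the microRNA gene Mir33, whose product is known to repress Abca1. It is named here for that position. The mature 5′ arm at chr15:82198127-82198147, plus strand, is shown with its seed, bases 2 to 8, in capitals, as RefSeq gives it.
mmu-miR-33-5p: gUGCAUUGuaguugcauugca
The Mir33 feature lay below the floor on all 4 arrays, at 4.65 with citalopram and 4.61 in control at day 7 and at 4.51 with citalopram and 4.60 in control at day 3, so no difference is read from it.

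Scap, the escort of the SREBPs, had the narrowest range of the 8 genes and lies on chromosome 9, 110333288 to 110384949. Its level was 9.68 with citalopram and 9.70 in control at day 7, and 9.80 with citalopram and 9.78 in control at day 3. The 4 arrays spanned 0.12, and the citalopram differences were -0.02 and 0.02 at day 7 and day 3.

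Insig1 encodes the INSIG protein whose own gene is a strong SREBP target (chromosome 5, 28071412 to 28078662). It measured 10.65 with citalopram and 10.98 in control at day 7, and 10.96 with citalopram and 10.74 in control at day 3. Citalopram at day 7 gave the lowest of the 4 levels, and control at day 7 the highest. The citalopram difference was -0.34 at day 7 (1.26-fold lower; 5.46% of genes were as low) and 0.22 at day 3 (1.16-fold higher; 13.1% were as high).

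Insig2, the second INSIG gene, is not a classical SREBP target (chromosome 1, 121304353 to 121332662). Its level was 10.64 with citalopram and 10.62 in control at day 7, and 10.61 with citalopram and 10.43 in control at day 3. Only control at day 3 stood apart, lower than the other arrays, which lay within 0.03 of each other. The citalopram difference was 0.01 at day 7 and 0.18 at day 3, so that the INSIG genes were closer to each other in this difference at day 3 (0.22 and 0.18) than at day 7 (-0.34 and 0.01).

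**Figure D1:**
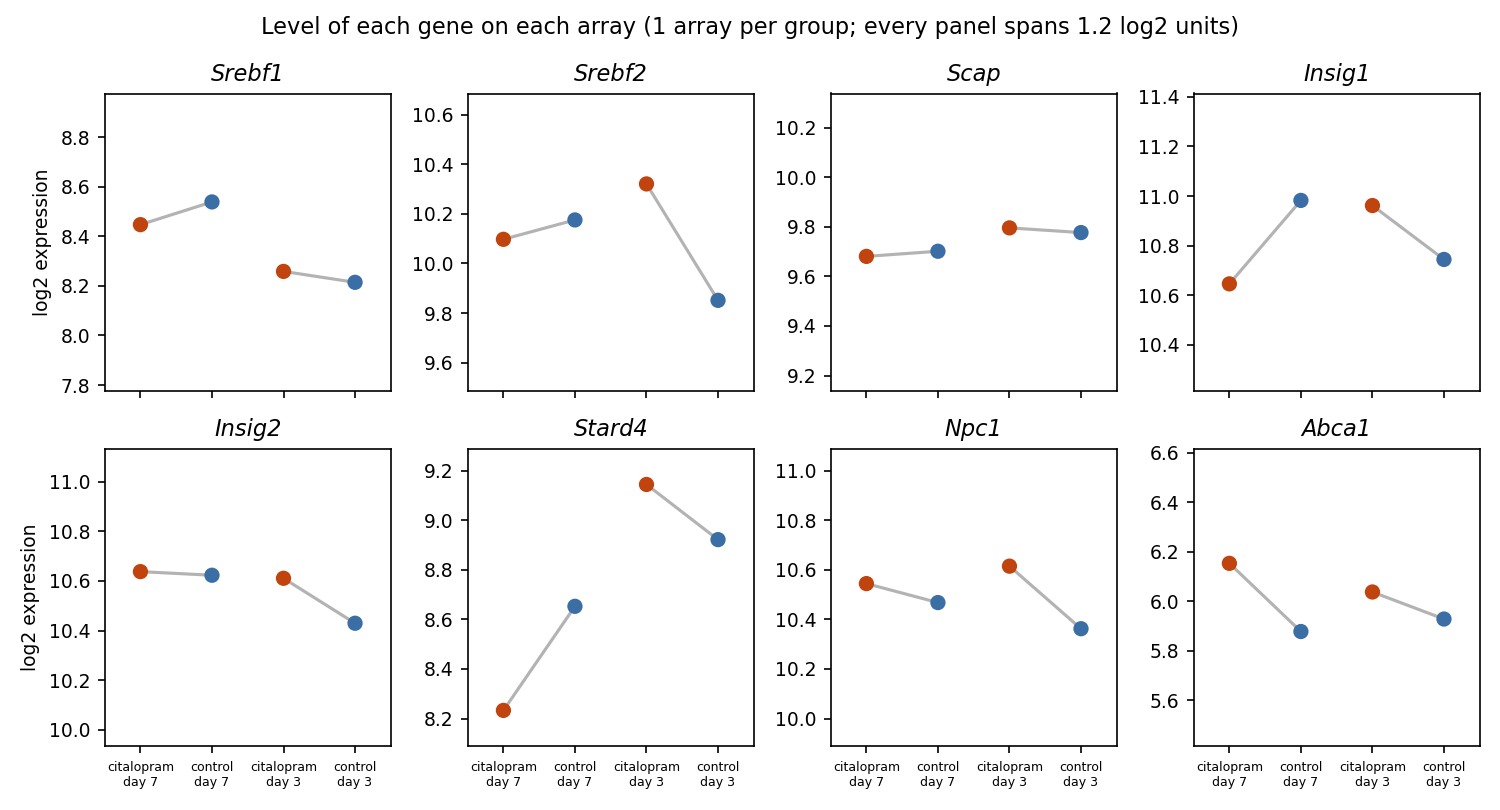
Level of each of the 8 genes (log2 expression, vertical axis) on each of the 4 arrays; every panel spans 1.2 log2 units, points are single arrays and grey lines join citalopram to control of the same day. Insig1 and Stard4 with citalopram lie below control at day 7 and above it at day 3, and Srebf2 is lowest in control at day 3.

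The 250 bases before a start are shown for Srebf2, Insig1 and Abca1, to show which letters read by sterol-responsive factors they hold. These genes had a single window each and a citalopram difference past 1.2-fold. The Abca1 gene, on the minus strand, extends to 53159988, which lies within its window. The start used for Abca1 is therefore inside the annotated gene, as is part of the window. Sequences are from RefSeq, build GRCm38.p6, 5′ to 3′ on the gene's strand. Capitals mark the core of the sterol regulatory element (TCACCCC), the E-box CACGTG and the CCAAT box, the site of NF-Y, a partner of SREBPs, each searched on both strands.
Srebf2, chr15:82147019-82147268, plus strand: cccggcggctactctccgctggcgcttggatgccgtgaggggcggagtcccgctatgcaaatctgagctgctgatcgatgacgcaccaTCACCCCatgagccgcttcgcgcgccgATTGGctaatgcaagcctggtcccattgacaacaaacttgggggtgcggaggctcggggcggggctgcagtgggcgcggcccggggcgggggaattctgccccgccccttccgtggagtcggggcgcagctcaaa
Insig1, chr5:28071162-28071411, plus strand: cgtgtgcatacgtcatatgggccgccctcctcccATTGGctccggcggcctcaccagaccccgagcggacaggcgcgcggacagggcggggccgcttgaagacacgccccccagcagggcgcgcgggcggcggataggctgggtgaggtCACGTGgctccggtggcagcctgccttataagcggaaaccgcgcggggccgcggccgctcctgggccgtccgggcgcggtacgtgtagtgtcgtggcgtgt
Abca1, chr4:53159896-53160145, minus strand: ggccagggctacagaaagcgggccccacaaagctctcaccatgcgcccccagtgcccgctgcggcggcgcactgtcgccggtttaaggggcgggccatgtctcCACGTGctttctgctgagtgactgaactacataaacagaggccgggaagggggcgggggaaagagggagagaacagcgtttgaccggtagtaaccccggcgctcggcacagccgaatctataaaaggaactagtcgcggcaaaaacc

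The Srebf2 window held TCACCCC 162 bases and an inverted CCAAT box 135 bases before the start. The Insig1 window held no TCACCCC, an E-box at 101 bases and an inverted CCAAT box at 216 bases. The Abca1 window held an E-box at 147 bases before the start used and neither of the other motifs. A GC box (GGGCGG) occurred in all 3 windows. LXR receptors bind direct repeats of the form AGGTCA, 4 bases, AGGTCA, and these exact letters occurred in none. Variants of the repeat were not searched, so its absence does not show that a window lacks an LXR site. Matches did not overlap one another in these windows. Of all 32851 windows of the same length, TCACCCC was in 4.31%, CACGTG in 6.02%, CCAAT in 33.8%, GGGCGG in 32.7% and the AGGTCA repeat in 0.0152%. The 8 windows of Srebf1, Scap and Insig2 held TCACCCC once, on the opposite strand at 1 of the 3 Insig2 starts, and CACGTG once, at 1 of the 2 Scap starts. Stard4 and Npc1 had no window in the table used. A match describes letters, and no binding was measured.

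Stard4 encodes a soluble carrier that moves cholesterol between membranes and is a known SREBP-2 target. It had the widest range of the 8 genes, 0.91 over the 4 arrays. Its level was 8.23 with citalopram and 8.65 in control at day 7, and 9.14 with citalopram and 8.92 in control at day 3. Both arrays of day 7 lay below both of day 3, with citalopram at the low end at day 7 and at the high end at day 3. The citalopram difference was -0.42 at day 7 (1.34-fold lower; 2.99% of genes were as low) and 0.22 at day 3 (1.17-fold higher; 12.5% were as high).

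Among 12414 other genes that reached the floor on any array, the profile most like that of Stard4 was that of Parvb, which encodes the adhesion protein beta-parvin. Each profile was centred on its own mean, and the root mean square difference over the 4 arrays was 0.0146. Zfand2a, a gene known to be induced by arsenite (0.0267), and Cmah, a gene of sialic acid metabolism (0.0359), came next. With 4 arrays per profile, this is a description of likeness only.

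Npc1 encodes the lysosomal membrane protein that releases cholesterol taken up with lipoproteins. Its level was 10.54 with citalopram and 10.47 in control at day 7, and 10.62 with citalopram and 10.36 in control at day 3. Both citalopram arrays lay above both control arrays. Citalopram exceeded control by 0.08 at day 7 and by 0.25 at day 3 (1.19-fold; 9.80% of genes were as high).

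Abca1 encodes the transporter that passes cholesterol to apolipoprotein acceptors (chromosome 4, 53030789 to 53159988). It was dim, at 6.15 with citalopram and 5.88 in control at day 7, and at 6.04 with citalopram and 5.93 in control at day 3. The 2 citalopram arrays reached the floor and the 2 control arrays did not. Citalopram exceeded control by 0.28 at day 7 and by 0.11 at day 3 on the log2 scale, each taken against a control array below the floor, so no fold is given. The gene entered the counts only through the arrays where it was brighter, and at day 7 the difference dropped under 1.2-fold after quantile normalization (0.26) or a shift of the arrays to a common median (0.22).

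At day 7, 2 of the 8 genes were at least 1.2-fold lower with citalopram, Stard4 and Insig1 (25.0%), where 9.07% of 12167 genes above the floor were. Abca1 alone was counted as at least 1.2-fold higher, where 9.86% of genes were; its control array was below the floor, and it was not counted after quantile normalization or with the common median. The median difference of the 8 genes was -0.05, against 0.01 over all genes, and 5 of the 8 were below 0.

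At day 3, all 8 genes were above 0 with citalopram, with a median of 0.20, against 57.7% of 12196 genes and a median of 0.03. Srebf2 alone was at least 1.2-fold higher, 1 of 8 or 12.5%, where 8.94% of genes were, which is near the background. None was at least 1.2-fold lower, where 4.96% of genes were. Srebf1 and Scap, at 0.04 and 0.02, lay near the median of all genes, and Scap was at -0.0047 after cyclic loess.

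The citalopram difference was lower at day 7 than at day 3 for 7 of the 8 genes, all but Abca1. Over all 12406 genes above the floor, it was higher at day 7 for 45.2%, with a median of -0.03. By at least 1.2-fold it was lower for Stard4 (-0.64), Insig1 (-0.55) and Srebf2 (-0.55), 37.5% of the 8, where 15.7% of 12406 genes were, and it was higher for none, where 11.3% of genes were. For Stard4 it also passed 1.5-fold, where 1.83% of genes did. Insig1 and Stard4 owed this to differences of opposite sign at the 2 days, whereas for Srebf2 nearly all of it came from day 3. These differences between days were not tested, since each rests on 4 single arrays.

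**Figure D2:**
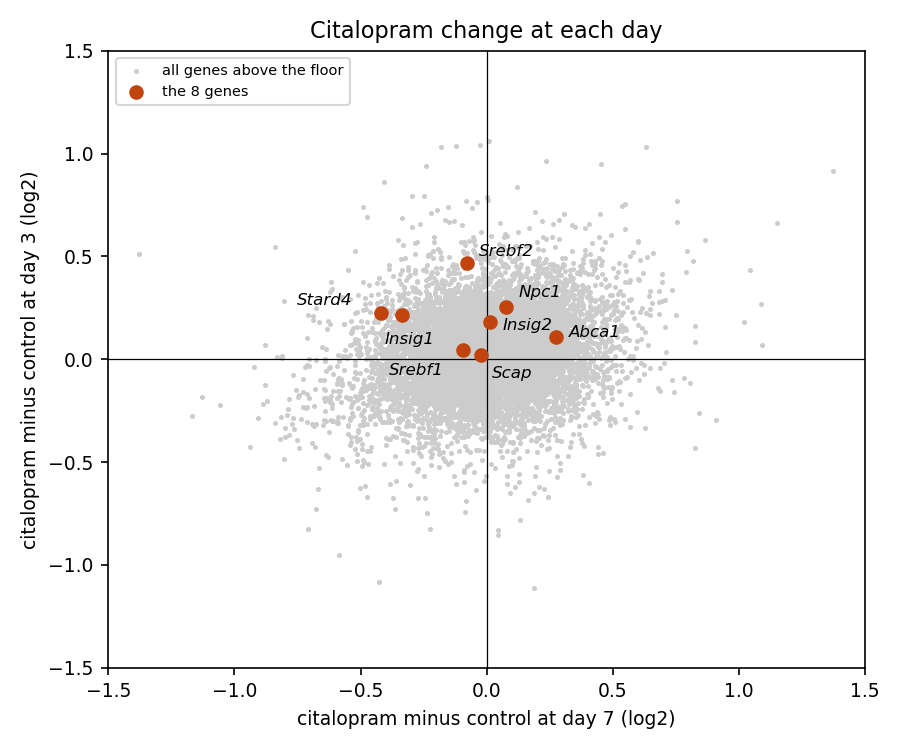
Citalopram minus control at day 7 (horizontal, log2) against day 3 (vertical, log2); grey points are genes that reached the floor on any array and orange points the 8 genes. All 8 lie above 0 on the vertical axis, and Stard4 and Insig1 lie farthest left, at -0.42 and -0.34.

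Day 7 was then set against day 3 within each treatment. With citalopram, Stard4 was 0.91 lower at day 7 than at day 3 (1.88-fold), and 0.55% of 12187 genes were as low. Insig1 was 0.32 lower, so that 2 of 8 genes were at least 1.2-fold lower, where 18.2% of genes were. Stard4 also passed 1.5-fold, where 2.81% of genes did, and none of the 8 was at least 1.2-fold higher, where 12.0% of genes were. After quantile normalization the Insig1 value was -0.26, under 1.2-fold.

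In control cells, Srebf1 and Srebf2 were each 0.32 higher at day 7 than at day 3 (1.25-fold), 2 of 8 genes, where 9.18% of 12201 genes were at least 1.2-fold higher. Stard4 was 0.27 lower, where 11.6% of genes were at least 1.2-fold lower, and it dropped just under that fold with cyclic loess (-0.26). Insig1 was 0.24 and Insig2 0.19 higher, whereas Scap was at -0.08 and Abca1 at -0.05, and Abca1 was below the floor in both arrays. With the arrays shifted to a common median, which moves all control genes by -0.11 between the days, Srebf1 and Srebf2 stood at 0.22 each, under 1.2-fold. Stard4 and Scap were lower and Srebf1 and Insig2 higher at day 7 in citalopram and in control, whereas Srebf2, Insig1 and Npc1 were lower with citalopram and higher in control. With the common median Insig2 turned to -0.13 with citalopram and Npc1 to -0.0022 in control.

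**Figure D3:**
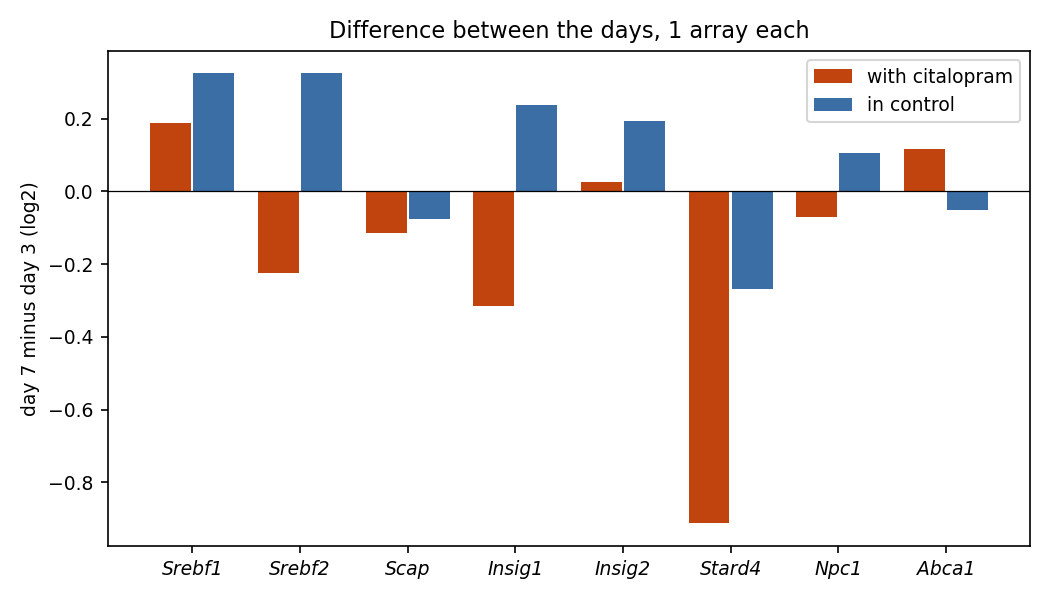
Level at day 7 minus level at day 3 (log2, vertical axis) for each gene, with citalopram (orange) and in control (blue), 1 array each. Stard4 is lower at day 7 in both, by 0.91 and 0.27; Insig1 is -0.32 with citalopram and 0.24 in control.

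A limma fit with additive terms for treatment and day, which leaves 1 residual degree of freedom, was run on the 12415 genes that reached the floor on any array. For citalopram over both days, limma called 0 of the 8 genes and 0% of all genes at an adjusted p under 0.05 (smallest 0.249; 1119 genes had an unadjusted p under 0.05), and 0 of the 8 had an unadjusted p under 0.05. The estimates were 0.20 for Srebf2 (SE 0.141, limma adjusted p 0.776), 0.19 for Abca1 (SE 0.107, adjusted p 0.682) and 0.16 for Npc1 (SE 0.107, adjusted p 0.741). Insig1 and Stard4, with opposite signs at the 2 days, came to -0.06 and -0.10. For day over both treatments, limma called 0 of the 8 genes and 2.80% of all genes (163 higher and 185 lower at day 7; 459 and 1085 after quantile normalization, 237 and 2057 with the common median). An unadjusted p under 0.05 was found for 2 of the 8, Stard4 and Srebf1, and for 2496 of the 12415 genes, so the 2 are near the background. Stard4 was lower at day 7 by 0.59 (estimate -0.59, SE 0.152, limma adjusted p 0.0817), and limma called it after quantile normalization (adjusted p 0.00198), cyclic loess (0.0145) and the shift to a common median (0.000416). Srebf1 was higher by 0.26 (SE 0.106, limma adjusted p 0.222). The second day or treatment takes the place of a replicate here, and limma draws on the variance of all genes. A small p therefore says that the mean difference was large beside that variance, and the 2 array pairs can still differ. For Stard4 the differences between the days were -0.91 with citalopram and -0.27 in control. Separate cultures behind the arrays are not stated in the labels.

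The genes these regulators act on were followed in 6 lists. Of 17 sterol synthesis enzymes measured, 17 were below 0 with citalopram at day 7 (median -0.34; 11 at least 1.2-fold lower, 0 higher) and 16 were above 0 at day 3 (median 0.24; 8 at least 1.2-fold higher, 0 lower), beside 9.07% of all genes lower at day 7 and 8.94% higher at day 3. Idi1, isopentenyl diphosphate isomerase, stood at -0.69 and Fdft1, squalene synthase, at -0.54 at day 7. Hsd17b7, a sterol reductase, was highest at day 3, at 0.66, followed by Cyp51, the lanosterol demethylase, at 0.33. Insig1, Stard4, Srebf2, Srebf1 and Scap had the signs of the enzyme medians at both days. For Srebf1 the differences at day 7 and day 3 were -0.09 and 0.04, and for Scap -0.02 and 0.02. On the deposited scale Srebf2 was within 0.08 of control at day 7, when the enzymes were lowest. It was at -0.10 after quantile normalization, -0.13 with the common median and -0.09 after cyclic loess. Over the same genes above the floor, the medians of all genes were 0.01 at day 7 and 0.03 at day 3.

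Of 15 fatty acid genes under SREBP-1, 11 were below 0 at day 7 (median -0.13) and 12 above 0 at day 3 (median 0.14), where 57.7% of all genes were above 0 at day 3. The 15 include a gene below the floor, as 14 reached it at each day. At least 1.2-fold, 3 of the 14 were lower at day 7, where 9.07% of all genes were, and 5 were higher at day 3, where 8.94% were. Acly, ATP citrate lyase, was at -0.32 and Fasn, fatty acid synthase, at -0.30 at day 7, while Gpam, a glycerol-3-phosphate acyltransferase, was at 0.26. Elovl6, a fatty acid elongase, was at 0.49 at day 3. Lpin1, a phosphatidate phosphatase, was above control at both days, by 0.23 at day 7 and 0.48 at day 3. Srebf1 itself was within 0.10 of control at both days on the deposited scale. At day 7 it was at -0.15 after quantile normalization, -0.15 with the common median and -0.12 after cyclic loess.

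Another list holds genes that process the SREBPs or turn over their regulators. Of 12 measured, 0 were at least 1.2-fold higher or lower with citalopram at either day, where 9.86% of all genes were higher and 9.07% lower at day 7 and 8.94% higher and 4.96% lower at day 3. The medians were -0.05 at day 7 and 0.01 at day 3. Between the days, 3 of the 12 were at least 1.2-fold lower at day 7 with citalopram and 3 in control, where 18.2% and 11.6% of genes were. Mbtps1, which encodes the site-1 protease that cuts SREBPs in the Golgi, was at -0.18 at day 7. Rnf145, an ubiquitin ligase, was at -0.24 at day 7. Syvn1, an ubiquitin ligase of the endoplasmic reticulum, was at 0.24 and Erlin1, a sterol-binding membrane protein, at -0.23 at day 3.

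Of 9 other genes of lipoprotein uptake and lysosomal release, 6 were below 0 at day 7 (median -0.07) and 8 above 0 at day 3 (median 0.18). Of all genes above the floor, 51.3% were above 0 at day 7 and 57.7% at day 3. Lrp8, a receptor of the low-density lipoprotein receptor family, was at -0.25 at day 7 and 0.43 at day 3, and its relative Lrp1 at -0.28 and 0.27. Scarb2, a lysosomal membrane protein, was the highest at day 7, at 0.46. Vldlr, the very-low-density lipoprotein receptor, was above control at both days, by 0.17 and 0.22.

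Of 17 genes for sterol transfer between membranes, 8 were above 0 at day 7 (median -0.01) and 15 at day 3 (median 0.07). Over all genes above the floor, 51.3% were above 0 at day 7 and 57.7% at day 3. The 17 include genes below the floor, as 16 reached it at day 7 and 15 at day 3. Tmem97, a membrane protein known to bind NPC1, was the lowest at day 7, at -0.52, and stood at -0.01 at day 3. Stard3, a late endosomal relative of Stard4, was at -0.22 at day 7. Osbp, the oxysterol-binding protein, was the highest at day 7, at 0.33.

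For efflux and storage, 8 of 12 measured genes reached the floor in each comparison, and the medians over all 12 were -0.02 at day 7 and -0.02 at day 3. Nr1h3, which encodes LXR-alpha, and Abcg1, a second cholesterol exporter, were below the floor on all 4 arrays, so Abca1 cannot be set beside them. Nceh1, a cholesteryl ester hydrolase, was at 0.33 and the transporter gene Abca7 at 0.25 at day 3. Apoe, which encodes the acceptor apolipoprotein E, was at -0.17 at day 7 and -0.10 at day 3.

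Mitosis genes, markers of dividing cells, differed with treatment at both days. Of 7 measured, all 7 were lower with citalopram at day 7 (median -0.64) and at day 3 (median -0.25). At least 1.2-fold lower were 7 at day 7, where 9.07% of all genes were, and 3 at day 3, where 4.96% were. Their mean level was 10.83 with citalopram and 11.50 in control at day 7, and 11.11 with citalopram and 11.39 in control at day 3. Their sign was the same at both days, and their part in these results was not tested. The osteoblast markers had means of 9.70 with citalopram and 9.73 in control at day 7, and of 9.67 with citalopram and 9.50 in control at day 3. Lyz2, a macrophage marker, was higher with citalopram by 0.47 at day 7 and 0.57 at day 3. Cd68, also a macrophage marker, differed by 0.15 at day 7 and -0.0090 at day 3, while Ptprc, Adgre1, Csf1r and Itgam were below the floor on all 4 arrays. The mean of the 6 macrophage markers was 6.26 with citalopram and 6.20 in control at day 7, and 6.35 with citalopram and 6.21 in control at day 3.

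**Figure D4:**
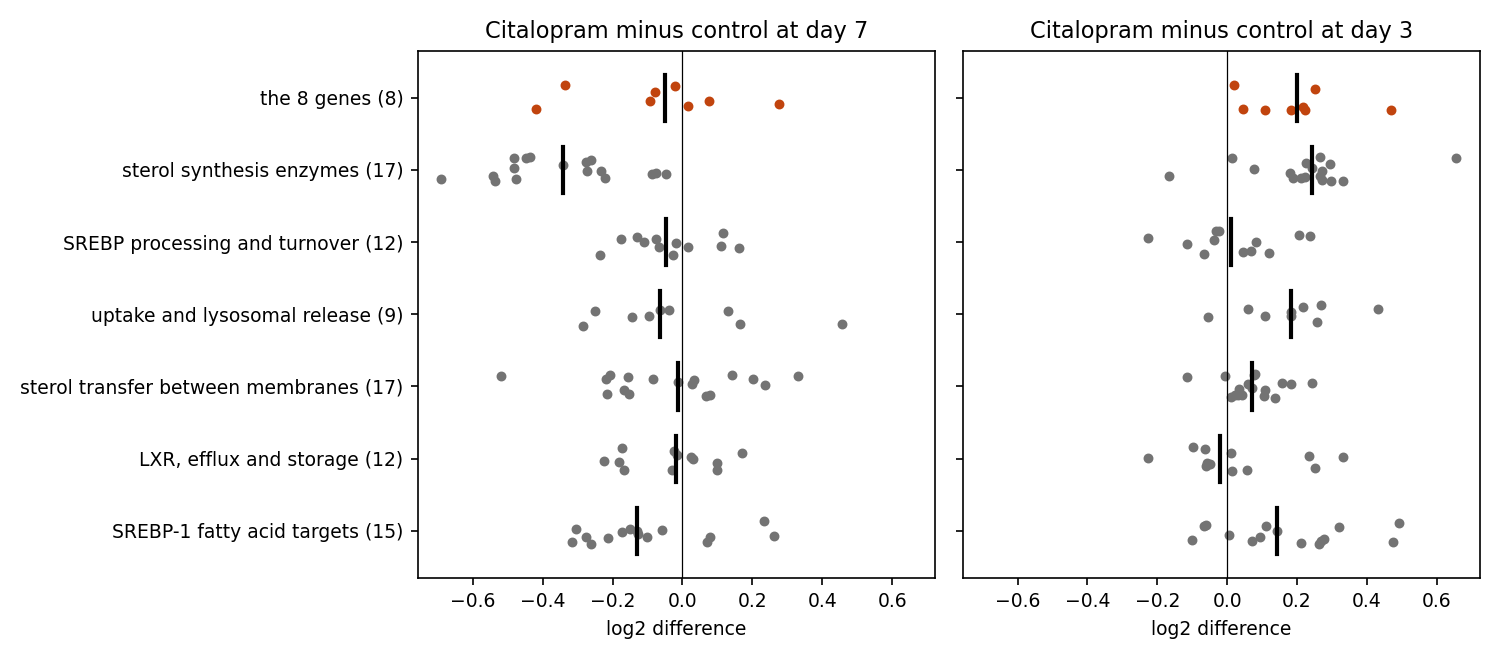
Citalopram minus control (log2, horizontal axis) at day 7 (left) and day 3 (right) for the 8 genes (orange) and the measured genes of the 6 pathway lists (grey), with the number of genes in brackets and the median as a black bar. Sterol synthesis enzymes have medians of -0.34 at day 7 and 0.24 at day 3, against -0.05 and 0.20 for the 8 genes.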

How the data were processed

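RNA from MC3T3-E1 cells was hybridised to 4 Affymetrix arrays. The labels' protocols give 6-well plates seeded with 50000 cells in each well, Trizol extraction, and 250 ng of RNA as input. The deposited values are log2 expression as the authors computed it for every feature. The base is inferred from their range, 3.90 to 15.5. The submitters' processing notes name Partek, without stating the background correction or normalization.

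Of 35556 features, 21789 carried 1 symbol, 1621 several and 12146 none. For each gene the single-symbol feature with the highest mean was kept. All 8 members matched RefSeq (GRCm38.p6) by Entrez number. Members and lists were chosen with earlier results of these data known; list genes missing from the annotation were not analysed here. The report names the members, up to 2 genes per list, day and direction by size, Mir33 for its position, and the 3 profiles nearest to each member spanning at least 0.5. Other genes named in marker lists are there for what they mark.

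Differences were taken between single arrays, with no p-value, and counted at 1.2-fold (0.263) and 1.5-fold (0.585) among genes whose brightest array in the comparison reached the floor. Across all genes, limma 3.58.1 (R 4.3.3, lmFit, eBayes, two-sided, Benjamini-Hochberg) was fitted to the deposited values and, as alternatives, to 3 scalings of them. Every limma value reported comes from these fits, and those given with a scaling come from the rescaled values. Separately, the code was tested on simulated data. Differences and figures were made in Python 3.11.15 (numpy 2.4.6, pandas 2.3.3, matplotlib 3.10.9). Alternatives were 3 scalings, the features kept, a variance trend, no floor and 1-factor models.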

Additional observations from a re-analysis of the deposited data

Results flagged for a closer look

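With citalopram, 5 of the 8 genes had differences of opposite sign at day 7 and day 3, and the difference between the days was not tested. The day 7 value minus the day 3 value was -0.64 for Stard4, -0.55 for Insig1, -0.55 for Srebf2, -0.14 for Srebf1 and -0.0396 for Scap. For Srebf1 and Scap the single-day values were all under 0.10 in size on the deposited scale.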

How the results depend on the processing

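Under quantile normalization, cyclic loess and a shift to a common median, no member value past 1.2-fold changed sign. Of 40 member values under each scaling, 38, 39 and 35 kept their side of 1.2-fold. Taking the mean of a gene's single-symbol features could change none of the 40, since each member had 1 such feature. When features with several symbols were allowed, an alternative chosen after seeing the data, Srebf2 reversed to -0.0609 for day 7 against day 3 in control and to 0.134 for the citalopram difference at day 7 less that at day 3, and the count past 1.2-fold with citalopram at day 3 was 0. At 1.5-fold the counts were 0 for citalopram at day 7, 0 at day 3, 1 for the days with citalopram, 0 for the days in control and 1 for the difference between days. For the days with citalopram the count was 1 after quantile normalization and 4 after the common median; in control the common median left 1. The common median moved all genes by -0.16 with citalopram and -0.11 in control between the days.

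Over all genes limma called, for citalopram, 139 (quantile), 40 (cyclic loess) and 103 (common median), against 0 on the deposited scale, where 1119 had an unadjusted p under 0.05. For day it called 348, and 1544, 1018 and 2294 under these scalings, 190 with no floor and 68 with day alone. The cause was not tested. Each group holds 1 array, so no replicate numbers can be paired. The additive fit already compares treatments within days, which pairs the arrays by day, and with treatment alone limma called 0. With 1 residual degree of freedom no array can be left out of the additive fit.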
